A study of Mus musculus with 60 samples.

Results

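The 20 calf muscle arrays of 21-day-old mice, of 60 arrays in the series, were used to ask where muscle carrying 2 mutations together differed from the sum of what each mutation did alone. They were chosen by the age in their titles, and all 20 entered the comparison, 5 from each of 4 lineages. C57Bl/6 mice carried neither mutation, Largemyd mice served as a model of dystroglycanopathy, Dmdmdx mice as a model of Duchenne muscular dystrophy, and Dmdmdx/Largemyd mice, called the double mutant here, carried both. All were labelled as males that had no treatment, 1 animal per array with no technical repeat, and the same 4 lineages at 3 and 6 months supply the comparison with age. RNA came from powdered whole muscle, so fewer cells of a type and less RNA per cell cannot be told apart. Both mutations are inherited and present in every cell from conception, so no result here separates muscle fibres from the other cells of the tissue.

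Dystrophin links the actin skeleton of the muscle fibre to the membrane complex around dystroglycan, and the outer part of dystroglycan holds laminin in the basement membrane through long sugar chains. The Dmdmdx mutation removes dystrophin at the inner end of this link, and the Largemyd mutation stops the building of the sugar chains at its outer end. Loss of either leads to fibre breakdown, entry of macrophages, and regeneration by new fibres that express embryonic forms of sarcomere proteins. At about weaning age mdx calf muscle passes through a wave of breakdown and repair.

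Expression values were log2 values, on which 1 unit is a 2-fold difference. For each of 19938 genes the additive level was the Dmdmdx mean plus the Largemyd mean minus the C57Bl/6 mean. The non-additive contrast was the double mutant mean minus that level. It is 0 when the 2 mutations multiply each other's effects on expression. It is negative when the double mutant lies below the additive level, and positive when it lies above. A negative value is therefore not the same as low expression: a gene may be far above C57Bl/6 in the double mutant and still fall short of the sum. The contrast was tested with limma, and genes pass at an adjusted p below 0.05. All 12 groups of lineage and age were fitted together, so each gene's error was pooled over them, older arrays included. The p-values therefore measure the spread between animals within all these groups, not only between the 5 animals per group compared here. The number of arrays limits the precision.

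Dmd, the gene of dystrophin, followed the labels. Its values were 9.95, 9.24, 10.12, 9.68 and 9.61 in C57Bl/6, 9.51, 9.64, 9.67, 9.72 and 9.45 in Largemyd, 8.41, 8.65, 8.83, 8.33 and 8.31 in Dmdmdx, and 9.20, 9.02, 8.92, 9.07 and 8.94 in the double mutant. Every array of the 2 lineages with the Dmdmdx mutation lay below every array of the other 2. Its contrast of 0.65 (SE 0.25) did not pass (adjusted p = 0.069). Utrn, which encodes the related protein utrophin, and Dag1, which encodes dystroglycan, had contrasts of -0.06 (SE 0.10) and -0.01 (SE 0.15) and did not pass (adjusted p = 0.73 and 0.98). Muscle genes marked the tissue as labelled: the mean over 24 genes of the adult fast sarcomere ranged from 12.13 to 12.82 across the 20 arrays.

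Xist, an RNA made from the inactive X chromosome of females, lay between 4.19 and 4.74 on all 20 arrays, and the mean of 3 Y-linked genes at 8.58 or above, as the male label has it. At the older ages 11 arrays went against that label, 3 at 3 months and 8 at 6 months. Their Xist values were at least 10.58 and their Y-linked means at most 5.17, and 5 were C57Bl/6, 3 Largemyd and 3 Dmdmdx. The results on age are given with and without them.

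Some arrays had raised markers of lymph node and lymphocytes, marrow or skin, and whether neighbouring tissue supplied this RNA was not tested. The mean of 22 lymph node and lymphocyte markers was 8.97 on C57Bl/6 array 2, 7.23 on Largemyd array 1, and 7.79, 7.95 and 7.77 on Dmdmdx arrays 1, 3 and 5, against 5.69 to 6.85 on the other 15. The mean of 20 neutrophil and marrow markers was 10.81 on double mutant array 5 and 5.58 to 6.99 elsewhere. The mean of 23 skin markers was highest on double mutant arrays 3 and 2, at 8.96 and 7.95. Within the double mutant, arrays 1 and 5 also stood apart from the other 3 in many genes, and values without them are given beside some of the results. They were the 2 lowest of their group for 10 of the 12 most negative genes. The same order held for 621 of the 1745 genes with a negative contrast that passed, and for 4148 of all 19938. It held for 16 of 33 macrophage markers and 12 of 27 regenerating sarcomere genes. Without both arrays 1528 genes were negative and 1183 positive. Lineage and strain background move together as well. H2-Ea encodes a class II chain that mice of the C57Bl/6 strain do not make, owing to a deletion, and was singled out after its values were seen. It lay at 5.34 to 5.75 in C57Bl/6 and 5.21 to 5.59 in Dmdmdx but at 10.83 to 11.41 in Largemyd. In the double mutant it read 9.04, 5.50, 9.43, 9.65 and 9.27, so array 2 was at the C57Bl/6 level and the other 4 were not. Its contrast of -2.50 did not pass (adjusted p = 0.17). Effects of the mutations and of other inherited differences between the lineages cannot be told apart.

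The double mutant fell short of the sum far more often by a wide margin than it exceeded it. The contrast passed for 3030 genes, negative for 1745 (8.75% of those tested) and positive for 1285 (6.44%). Counts of list members below are to be read beside these shares. Of the negative genes 534 differed from the additive level by at least 1 log2 unit and 121 by at least 2, against 80 and 2 of the positive genes. The median over all genes was 0.07. With each array's median subtracted the split became 3084 positive to 1360 negative. Without the 3 arrays that stood over 2 units above the others in lymph node, marrow or skin markers, it was 1900 to 2109. Without Largemyd array 5 the positive count was 791. With the error taken from the 20 arrays of 21 days alone, 1978 genes passed, 1223 negative and 755 positive.

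Most negative genes were ones that each mutation raised. Both single mutants were higher than C57Bl/6, past the threshold, for 953 of the 1745, against 1235 of all 19938 genes. None of the 1745 had both lower. The Largemyd, Dmdmdx and C57Bl/6 means enter both the contrast and this count, so the choice of genes itself favours such an excess. The double mutant mean lay between the means of the 2 single mutants in 21.1% of the negative genes and 25.9% of all genes. It was the lowest of the 4 group means in 26.4% of the negative genes and 25.4% of all genes, so this order was about as frequent in both. Of the 1285 positive genes 574 were lower in both single mutants, against 1499 of all genes, a count that shares its means with the contrast in the same way. The double mutant mean was the highest of the 4 in 36.2% of the positive genes and 32.5% of all genes. For 9 genes, all negative, the additive level lay above 14.12, the highest value on any 21-day array: Gpnmb, Lgals3, Lyz2, Mt2, Myl4, Prg4, Serpina3n, Tnnt2 and Wfdc17. No gene had an additive level below the lowest value of 2.37. What share of these contrasts a limit of the array's range accounts for was not tested.

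**Figure D1:**
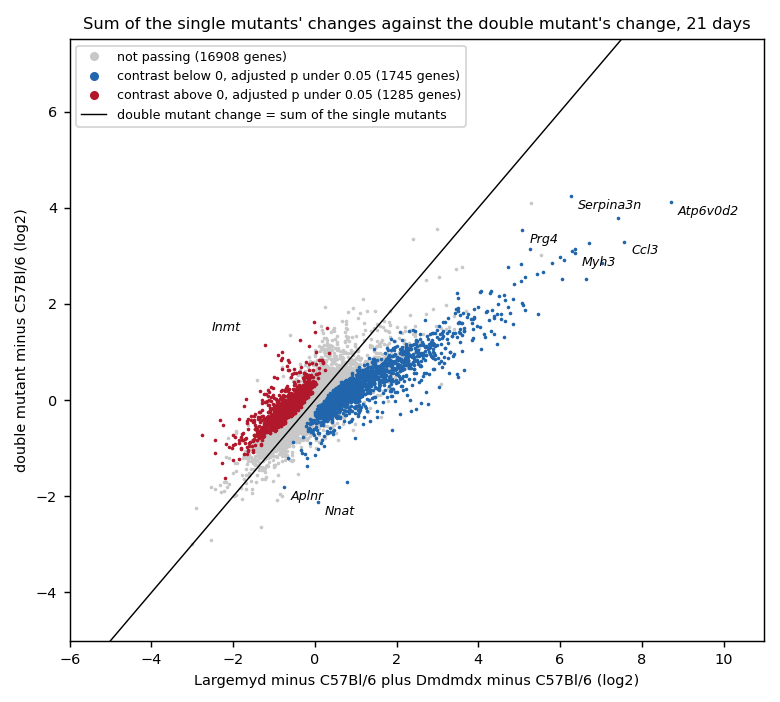
Double mutant minus C57Bl/6 (vertical axis) against the sum of Dmdmdx minus C57Bl/6 and Largemyd minus C57Bl/6 (horizontal axis) at 21 days, both in log2 units, 1 point per gene for 19938 genes; the diagonal marks a double mutant equal to the sum. The 1745 negative genes lie below the diagonal, mostly on the right where both mutations raised expression, and the 1285 positive genes lie above it.

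Macrophage genes showed the shortfall most widely. Of 33 measured markers 31 were negative and none positive, with a median contrast of -2.59. The median marker was 1.68 above C57Bl/6 in Largemyd, 2.55 above in Dmdmdx and 1.58 above in the double mutant, while the median sum of the single mutants was 4.38. The double mutant mean lay between the single mutants for 16 markers, below both for 15 and above both for 2. Of all 19938 genes 5156, 6576 and 8206 had these orders. The mean over the 33 markers ran from 7.09 to 7.96 in C57Bl/6, 8.43 to 9.68 in Largemyd, 9.37 to 10.21 in Dmdmdx and 8.52 to 9.40 in the double mutant. Every mutant array was therefore above every C57Bl/6 array.

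Atp6v0d2 (probe set 10511779), which encodes a proton pump subunit of macrophages and osteoclasts, had the most negative contrast of all genes. It read 4.95, 4.88, 4.60, 4.79 and 4.91 in C57Bl/6, 8.24, 7.75, 8.79, 9.0 and 9.83 in Largemyd, 9.76, 10.07, 9.69, 9.49 and 9.15 in Dmdmdx, and 7.46, 9.18, 9.13, 9.58 and 9.40 in the double mutant. The 3 mutant groups overlapped and all lay far above C57Bl/6. The additive level was 13.53 and the contrast -4.58 (SE 0.67, adjusted p = 2.4e-06).

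Ccl3 (probe set 10389231), a chemokine that draws in monocytes, read 5.84, 6.31, 6.16, 6.26 and 6.13 in C57Bl/6, 8.60, 8.54, 9.65, 10.26 and 10.09 in Largemyd, 10.83, 11.45, 10.47, 10.24 and 9.13 in Dmdmdx, and 7.90, 10.43, 9.82, 9.82 and 9.22 in the double mutant. The double mutant mean of 9.44 was within 0.01 of the Largemyd mean of 9.43. Its contrast was -4.27 (SE 0.51, adjusted p = 4.8e-08).

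Mpeg1, a pore-forming protein of phagocytes, had means of 6.46 ± 1.25 in C57Bl/6, 9.50 ± 0.68 in Largemyd, 10.44 ± 0.30 in Dmdmdx and 9.32 ± 0.63 in the double mutant (SD, n = 5 each). C57Bl/6 array 2, the one with the highest lymph node markers, read 8.66 against 5.61 to 6.24 on the other 4. The contrast was -4.16 (SE 0.53, adjusted p = 1.5e-07). Ctss, a lysosomal protease that prepares antigen for class II molecules, behaved alike, with 9.02 on C57Bl/6 array 2 and 6.82 to 6.96 on the others. Its double mutant arrays, at 9.23 to 10.37, overlapped both Largemyd (9.29 to 10.90) and Dmdmdx (10.22 to 11.23), and its contrast was -3.53 (SE 0.41, adjusted p = 2.3e-08).

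The phagocyte genes Gpnmb and Lgals3, which encodes galectin 3, had contrasts of -3.63 and -3.44. Their double mutant means of 10.77 and 10.93 lay between the single mutants. The receptors Clec7a, which binds fungal glucans, Cd180, a relative of the Toll-like receptors, and Clec12a, an inhibitory lectin, had contrasts of -3.33, -3.29 and -3.27. For each of these receptors the double mutant mean was below both single mutants, and below Dmdmdx by 1.42, 1.81 and 1.20. Cd68 and Trem2, a lysosomal protein and a lipid-sensing receptor of macrophages, had contrasts of -2.82 and -2.66. Lyz1 and Lyz2 are near-identical copies whose probes may read each other.

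The 2 markers that did not pass, Vsig4 and Cd163, are receptors of resident macrophages. Vsig4 read 4.41 to 4.88 in C57Bl/6, 6.67 to 6.95 in Dmdmdx, 7.00 to 8.11 in Largemyd and 8.36 to 9.0 in the double mutant. The double mutant was the highest group with no overlap, and the contrast was -1.20 (SE 0.45, adjusted p = 0.058). Cd163 read 6.89 to 7.71 in C57Bl/6 and 8.06 to 8.96 in the double mutant, with a contrast of -0.20 (SE 0.27, adjusted p = 0.63). Against Dmdmdx alone, 16 of the 33 markers were lower in the double mutant (13.6% of all genes were) and 2 were higher (13.9% of all genes). Against Largemyd 2 were lower (3.8% of all genes) and 2 higher (1.74%). The number of negative markers was 31 without the 3 arrays over 2 units up in tissue markers and 30 without double mutant arrays 1 and 5. It was 27 when linear values were tested.

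**Figure D2:**
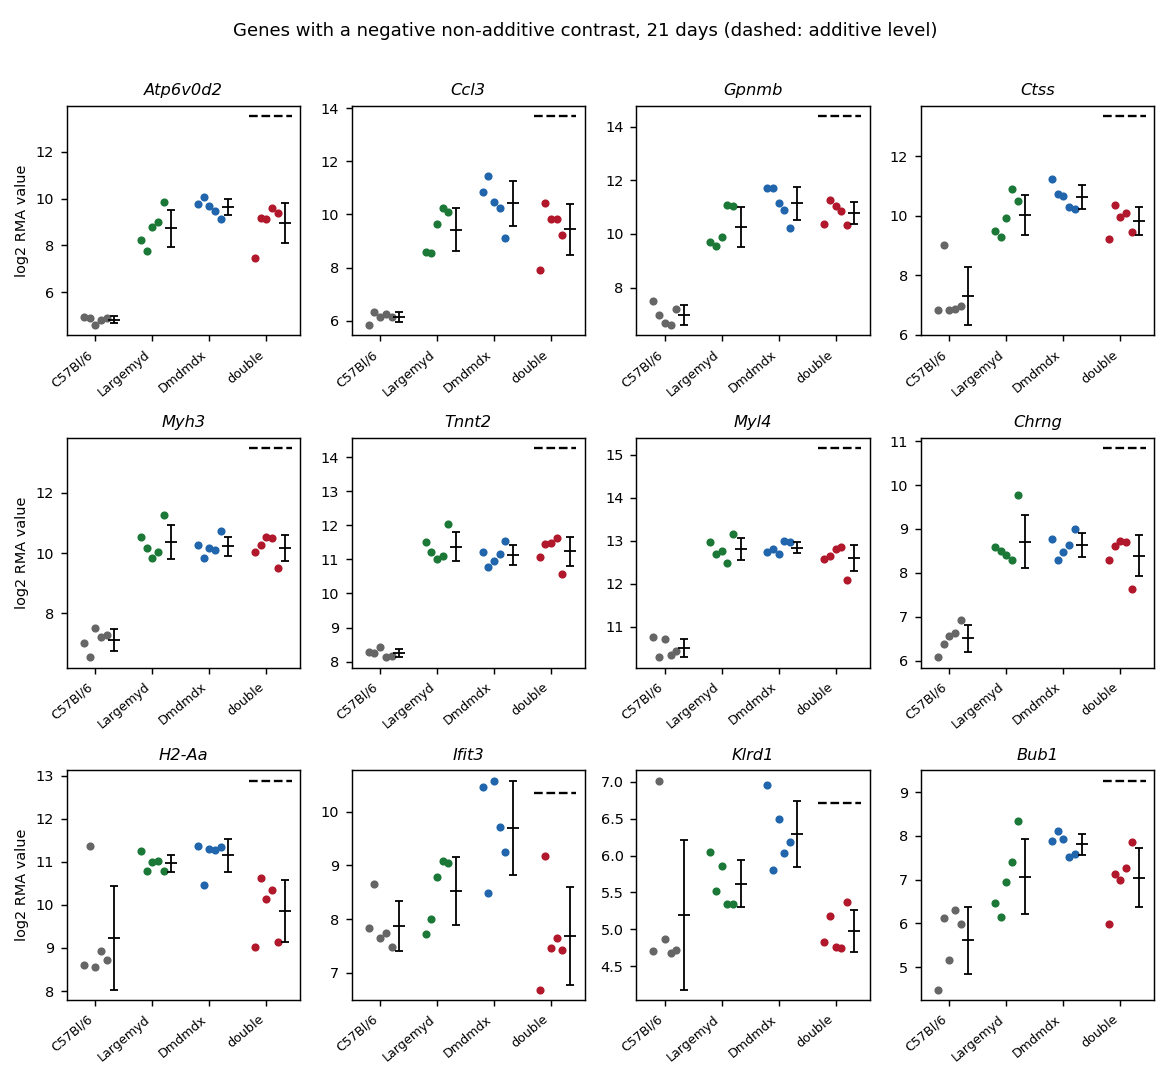
Log2 expression at 21 days of genes with a negative contrast, 1 panel per gene and 1 point per array for 5 arrays in each of the 4 lineages; black bars are the mean ± SD and the dashed line is the additive level. Double mutant points sit among or below those of the single mutants and below the dashed line, as for Atp6v0d2 with its additive level of 13.53.

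Promoters of Ccl3 and Ctss are printed because both genes are among the 12 most negative and are made by macrophages. Of the lists searched, the macrophage list, which does not include Ccl3, had the largest share of promoters with GAGGAA. This is the core of the site bound by PU.1, the ETS factor of macrophages. The sequences are the 250 bases before each gene's start, from RefSeq on build GRCm38.p6, read 5′ to 3′ on the strand of the gene. Ccl3 is at chr11:83649379-83649628 on the minus strand and Ctss at chr3:95526536-95526785 on the plus strand. Capitals mark matches, on either strand, to GAGGAA, the ETS core, and to GAAANNGAAA, the form of an interferon-stimulated response element.
Ccl3: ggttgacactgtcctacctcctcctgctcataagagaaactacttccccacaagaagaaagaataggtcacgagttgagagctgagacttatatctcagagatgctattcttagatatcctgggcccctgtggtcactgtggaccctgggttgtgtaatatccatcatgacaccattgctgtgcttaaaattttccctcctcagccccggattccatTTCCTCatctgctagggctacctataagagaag
Ctss: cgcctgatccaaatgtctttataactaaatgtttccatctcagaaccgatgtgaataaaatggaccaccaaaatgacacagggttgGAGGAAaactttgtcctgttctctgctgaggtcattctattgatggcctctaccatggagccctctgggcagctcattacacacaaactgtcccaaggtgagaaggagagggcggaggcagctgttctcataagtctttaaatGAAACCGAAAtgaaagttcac
Ccl3 held 1 GAGGAA match and Ctss held 1 of each motif. A promoter of 300 bases, 250 before the start and 50 after, was found for 15614 of the genes tested. GAGGAA occurred in 30.2% of them, in 35.6% of the negative genes' promoters, in 29.7% of the positive genes' in 14 of 25 macrophage marker promoters and in 6 of 19 of the chemokine list (31.6%), to which Ccl3 belongs. The longer form GAGGAAGT occurred in 3.24% of all promoters searched and in 1 of 25 macrophage marker promoters. The E-box CANCTG, in 52% of all promoters, was also in 14 of those 25. A match describes letters and does not show that a factor binds.

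Of 29 chemokines and cytokines 13 were negative and none positive, with a median contrast of -0.61. Besides Ccl3, the monocyte attractant Ccl2 rose from 6.63 ± 0.10 in C57Bl/6 to 9.33 ± 1.28 in Largemyd, 10.30 ± 1.00 in Dmdmdx and 9.77 ± 0.60 in the double mutant, a contrast of -3.22 (SE 0.54, adjusted p = 2.1e-05). Ccl8, another monocyte attractant, had a contrast of -3.68 (SE 0.53, adjusted p = 1.8e-06). It read 6.18 to 7.94 in the double mutant, below 7.97 to 9.18 in Dmdmdx with no overlap. C57Bl/6 array 2 read 7.43 for Ccl8 against 4.51 to 5.16 on the others. Il6 and Tnf, which encode interleukin 6 and tumour necrosis factor, had contrasts of -0.31 and -0.36 and did not pass (adjusted p = 0.50 and 0.13). Probes for neighbouring Ccl genes may read each other's transcripts.

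Complement genes moved alongside. Of 16 measured 8 were negative and none positive, with a median of -0.81. C3ar1, the receptor for the C3a fragment and also one of the macrophage markers, had a contrast of -3.06, Cfb, the serine protease factor B, -2.17, and C1qb, a subunit of the C1q recognition protein made by macrophages, -1.97. C1qb read 10.11 ± 0.27 in C57Bl/6, 11.76 ± 0.22 in Largemyd, 12.05 ± 0.22 in Dmdmdx and 11.73 ± 0.19 in the double mutant, with an adjusted p of 4.8e-08. The mutant groups overlapped.

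Interferon-induced genes were raised mainly in Dmdmdx and lay near the C57Bl/6 level in the double mutant. Of 27 measured, 23 were negative and none positive, with a median contrast of -1.16. The median gene was 0.94 above C57Bl/6 in Dmdmdx, 0.21 above in Largemyd and 0.12 above in the double mutant. Past the threshold 25 were higher than C57Bl/6 in Dmdmdx, 5 in Largemyd and 3 in the double mutant. Of all 19938 genes 2329, 1972 and 3076 were higher in the same order. In the double mutant 23 were lower than in Dmdmdx (13.6% of all genes were) and none lower than in Largemyd (3.8% of all genes). Irf1, Irf9, Oas3 and Rsad2 were the 4 that did not pass.

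Ifit3, an antiviral protein induced by interferon, read 7.84, 8.66, 7.64, 7.75 and 7.48 in C57Bl/6, 7.72, 8.0, 8.78, 9.07 and 9.05 in Largemyd, 10.45, 8.48, 10.57, 9.72 and 9.25 in Dmdmdx, and 6.69, 9.18, 7.47, 7.66 and 7.44 in the double mutant. The double mutant overlapped C57Bl/6 and its array 2 reached into the Dmdmdx range. The contrast was -2.66 (SE 0.49, adjusted p = 1.2e-04). Irf7, a transcription factor that amplifies the interferon response, read 7.92 to 10.47 in Dmdmdx and 6.43 to 7.98 in the double mutant, a contrast of -2.13 (SE 0.46, adjusted p = 7.2e-04). Dmdmdx arrays 1 and 3, with lymph node markers at 7.79 and 7.95, were the 2 highest of their group for both genes. Without the 5 arrays over 1 unit above the rest in lymph node markers, 18 of the 27 genes were negative. With the lymph node, marrow and skin means as covariates, 7 were.

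The promoter of Ifit3 is shown because the interferon motif was most frequent in this group. It lies at chr19:34583279-34583528 on the plus strand, RefSeq build GRCm38.p6, 250 bases before the start. Capitals mark GAAANNGAAA and GAGGAA on either strand, and where the run TTTCACTTTCCTC stands the 2 motifs overlap.
Ifit3: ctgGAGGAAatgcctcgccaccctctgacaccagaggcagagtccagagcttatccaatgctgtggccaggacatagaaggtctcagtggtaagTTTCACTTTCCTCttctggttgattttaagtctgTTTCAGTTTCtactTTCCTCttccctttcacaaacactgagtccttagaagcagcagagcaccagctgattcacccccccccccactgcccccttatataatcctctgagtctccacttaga
It held 2 GAAANNGAAA and 3 GAGGAA matches. GAAANNGAAA occurred in 3.89% of all promoters searched, in 6.16% of the negative genes' promoters, in 2.88% of the positive genes' and in 12 of 19 promoters of the interferon list.

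Of 14 MHC genes 9 were negative and none positive, with a median of -1.24. H2-Aa, a chain of the class II molecule that presents antigen, read 8.60, 11.38, 8.55, 8.94 and 8.73 in C57Bl/6, 11.26, 10.79, 10.99, 11.02 and 10.78 in Largemyd, 11.36, 10.47, 11.29, 11.28 and 11.34 in Dmdmdx, and 9.02, 10.63, 10.13, 10.36 and 9.15 in the double mutant. All 5 double mutant arrays lay below all 5 Largemyd arrays. C57Bl/6 array 2 was above all 15 mutant arrays. The contrast was -3.02 (SE 0.41, adjusted p = 7.1e-07). Cd74, the chaperone of class II molecules, and H2-Ab1, the partner chain of H2-Aa, had contrasts of -2.73 and -2.66. Sequence differences between strains in this region, as for H2-Ea, can alter how probes bind, and their part in these values was not tested. Without the 3 arrays over 2 units up in tissue markers 11 of the 14 were negative, and without the 5 arrays with raised lymph node markers 8 were.

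Of 13 natural killer and cytotoxic cell genes 5 were negative and none positive, with a median of -0.51, and -0.84 without C57Bl/6 array 2. The killer cell receptors Klrd1, Klrk1 and Ncr1 had contrasts of -1.74, -1.18 and -1.16. Klrk1 read 5.24 to 5.92 in Dmdmdx and 4.33 to 4.69 in the double mutant with no overlap, and 4.29 to 5.34 in C57Bl/6. These were low values, and no member passed when genes under the 30th percentile of mean expression were left out. With the tissue means as covariates 2 members were negative.

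Fibrous tissue genes fell short more modestly. Of 42 extracellular matrix genes 21 were negative and 1 positive, with a median of -0.53. The double mutant mean was below both single mutants for 31 of the 42, against 6576 of all 19938 genes. Fn1, which encodes fibronectin, had means of 11.51 in C57Bl/6, 12.24 in Largemyd, 12.49 in Dmdmdx and 11.95 in the double mutant, a contrast of -1.26 (SE 0.20, adjusted p = 8.0e-06). Postn, which encodes periostin, a matrix protein of wound repair, had -1.39 (SE 0.32), and Col8a1, a short-chain collagen, -1.32 (SE 0.28). Lum, which encodes the collagen-binding proteoglycan lumican, read 10.57 to 11.12 in Dmdmdx and 8.96 to 10.37 in the double mutant, with no overlap, and had a contrast of -1.26 (SE 0.27). Col1a1, a chain of the main fibrous collagen, was 11.53 in the double mutant against 12.33 in C57Bl/6, and its contrast of -0.43 did not pass (adjusted p = 0.36). Double mutant arrays 1 and 5 were the 2 lowest of their group for 26 of the 42 genes, where 20.8% of all genes had that order. Without both arrays 12 of the 42 were negative, and the contrasts of Lum and Col8a1 were -0.83 and -0.87 (adjusted p = 0.016 and 0.017).

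Of 31 proteases and inhibitors 18 were negative and 3 positive, with a median of -0.62. Timp1, an inhibitor of matrix metalloproteases, read 7.41 ± 0.42 in C57Bl/6, 10.19 ± 0.85 in Largemyd, 10.44 ± 0.32 in Dmdmdx and 10.26 ± 0.10 in the double mutant. The 3 mutant groups overlapped, and the contrast was -2.96 (SE 0.39, adjusted p = 3.2e-07). Mmp12, the elastase of macrophages, had -2.87 (SE 0.50, adjusted p = 4.0e-05). Timp4, a relative of Timp1, went the other way, with a contrast of 1.72 (SE 0.43, adjusted p = 0.0040). It read 9.60 to 10.98 in C57Bl/6, 8.71 to 10.29 in Largemyd, 8.90 to 9.77 in Dmdmdx and 9.67 to 10.15 in the double mutant. Of 20 fibro-adipogenic progenitor markers 5 were negative and none positive, with a median of -0.40.

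Embryonic sarcomere genes overlapped between the 3 mutants in the examples below. Of 27 genes of the regenerating sarcomere 11 were negative and 3 positive, with a median of -0.40. The median was -0.26 without double mutant array 5, and 1 member was positive without double mutant arrays 1 and 5. Against Dmdmdx 7 of the 27 were higher in the double mutant (13.9% of all genes were) and 2 lower (13.6% of all genes). Myh3, the embryonic myosin heavy chain, read 7.02, 6.54, 7.51, 7.22 and 7.29 in C57Bl/6, 10.53, 10.18, 9.85, 10.03 and 11.26 in Largemyd, 10.27, 9.85, 10.17, 10.09 and 10.73 in Dmdmdx, and 10.04, 10.28, 10.54, 10.50 and 9.50 in the double mutant. The mutant groups overlapped, and the contrast was -3.30 (SE 0.51, adjusted p = 7.1e-06). Myl4, the atrial and embryonic myosin light chain, had means of 10.51, 12.81, 12.84 and 12.60 in the same order. Its contrast of -2.55 had the smallest error of these genes (SE 0.22, adjusted p = 6.2e-12). Tnnt2, the cardiac and embryonic troponin T, had -3.02 (SE 0.42, adjusted p = 9.3e-07), and Myh8, the perinatal myosin, -1.95 (SE 0.35, adjusted p = 7.0e-05).

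The 3 positive members of that list are not embryonic forms: Xirp1, Nrap and Myo18b bind actin or myosin in developing and adult fibres. Their contrasts were 1.15, 0.84 and 0.83. Xirp1 was 10.31 in C57Bl/6, 10.55 in Largemyd, 9.55 in Dmdmdx and 10.95 in the double mutant.

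Among 26 satellite cell and myogenic regulators 7 were negative and 1 positive, with a median of -0.37. Mymk, which encodes the fusion protein myomaker, read 8.06 to 9.14 in C57Bl/6, 10.20 to 11.73 in Largemyd, 10.46 to 10.89 in Dmdmdx and 9.47 to 10.68 in the double mutant, a contrast of -2.68 (SE 0.47, adjusted p = 4.6e-05). Myog, which encodes myogenin, the factor of differentiating myoblasts, had -2.11 (SE 0.38, adjusted p = 6.6e-05). Pax7, the factor of satellite cells, and Myod1, that of activated myoblasts, had contrasts of -0.19 and -0.65 that did not pass (adjusted p = 0.40 and 0.16). The positive member was Chrdl2, a secreted inhibitor of bone morphogenetic proteins, at 0.72 (SE 0.15).

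Of 21 genes of the neuromuscular junction and of denervation 7 were negative and none positive, with a median of -0.15. Chrng, the fetal subunit of the acetylcholine receptor, had a contrast of -2.44 (SE 0.39, adjusted p = 1.2e-05), and Runx1, a transcription factor raised in denervated fibres, -1.80 (SE 0.24, adjusted p = 3.7e-07). The means of Runx1 were 7.84 in C57Bl/6, 9.70 in Largemyd, 9.54 in Dmdmdx and 9.60 in the double mutant. Several of these genes are also in the 2 preceding lists. Of 15 imprinted and prenatal growth genes 5 were negative and none positive. Peg10, a retrotransposon-derived imprinted gene, had means of 7.97, 9.44, 9.39 and 9.38 in the same order and a contrast of -1.48 (SE 0.28, adjusted p = 1.9e-04), while Igf2, which encodes a fetal growth factor, had -0.06 (SE 0.29, adjusted p = 0.91). The imprinted gene count was 3 without double mutant array 1.

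Of 43 cell cycle genes 15 were negative and none positive, with a median of -1.06 and a spread between arrays that made the count unstable. The median gene was 0.83 above C57Bl/6 in Largemyd, 1.17 above in Dmdmdx and 0.87 above in the double mutant. Anln, which encodes anillin of the dividing cell's contractile ring, read 6.14 to 6.83 in C57Bl/6, 6.88 to 8.94 in Largemyd, 7.88 to 8.84 in Dmdmdx and 7.14 to 8.14 in the double mutant, a contrast of -1.84 (SE 0.51, adjusted p = 0.0097). Mki67, the proliferation marker, had -1.42 (SE 0.79) and did not pass (adjusted p = 0.22). Leaving out 1 array moved the count by over 1.5 times for 8 arrays. It was 8 without C57Bl/6 array 1, 7 without C57Bl/6 array 3, 23 without Largemyd array 2, 6 without Largemyd array 4 and 3 without Largemyd array 5. It was 6 without Dmdmdx array 2, 9 without Dmdmdx array 3 and 4 without double mutant array 1.

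Akr1e1, an aldo-keto reductase in none of the lists, had the fourth most negative contrast. It read 4.71 to 5.19 in C57Bl/6, 7.75 to 8.48 in Largemyd, 8.20 to 8.35 in Dmdmdx and 6.65 to 8.19 in the double mutant. The double mutant lay below every Dmdmdx array and overlapped Largemyd, and the contrast was -4.12 (SE 0.60, adjusted p = 2.4e-06).

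**Figure D3:**
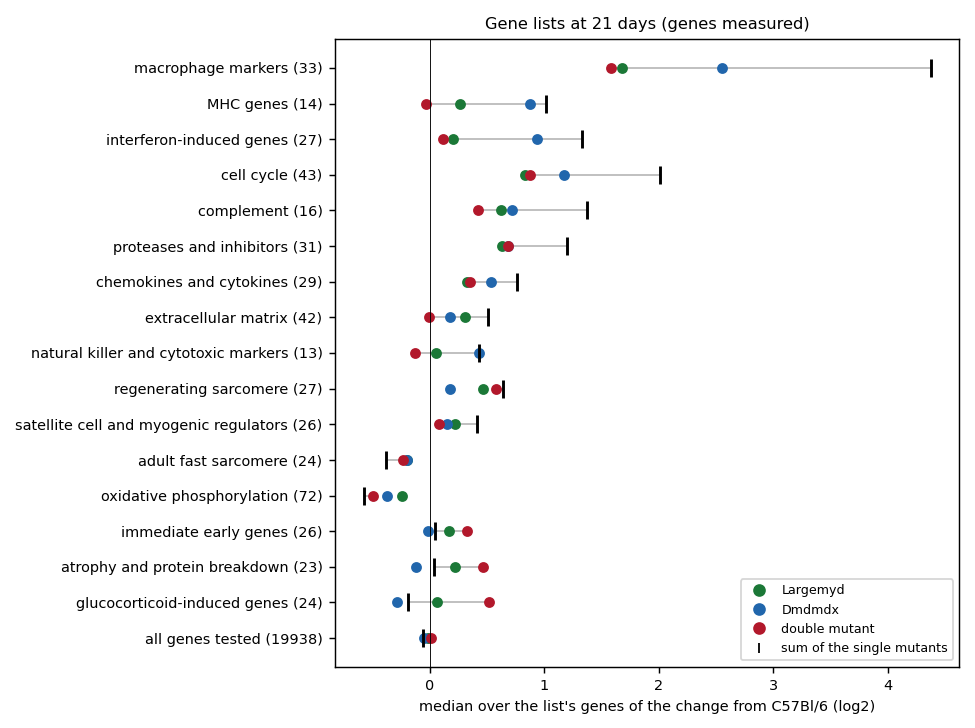
Medians over the genes of each list at 21 days, in log2 units relative to C57Bl/6, for Largemyd, Dmdmdx, the double mutant and the sum of the single mutants (the median over genes of the sum). The macrophage list stands at 1.68, 2.55, 1.58 and 4.38, and lists with a positive contrast lie near 0 with the double mutant to the right of the sum.

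Among the 12 genes with the most positive contrasts the double mutant mean lay near C57Bl/6 for some and above it for others. Inmt, an enzyme that adds methyl groups to indole amines, had the largest value, 2.35 (SE 0.67, adjusted p = 0.012). It read 9.61, 9.48, 8.41, 7.42 and 8.02 in C57Bl/6, 9.57, 9.47, 7.93, 8.96 and 6.26 in Largemyd, 7.75, 6.45, 7.79, 8.21 and 7.44 in Dmdmdx, and 10.77, 9.97, 8.29, 9.10 and 10.50 in the double mutant. All 5 double mutant arrays lay above all 5 Dmdmdx arrays, and double mutant arrays 1 and 5 were the 2 highest. Without Largemyd array 5 the contrast was 1.81 and did not pass (adjusted p = 0.052), and without double mutant arrays 1 and 5 it was 1.75 and did not pass (adjusted p = 0.085). It did not pass on the 20 arrays alone, with the tissue means as covariates or on linear values (adjusted p = 0.080, 0.063 and 0.13).

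Cish, an inhibitor of cytokine receptors that growth hormone signalling induces, read 9.52, 8.72, 9.79, 7.01 and 8.11 in C57Bl/6, 7.01 to 7.82 in Largemyd, 6.92 to 7.41 in Dmdmdx and 7.52 to 8.27 in the double mutant. The double mutant lay above every Dmdmdx array and inside the wide C57Bl/6 range, with a contrast of 2.04 (SE 0.51, adjusted p = 0.0040). Cish did not pass without the 5 arrays with raised lymph node markers (1.83, adjusted p = 0.067). Nor did it pass without the 9 arrays raised in any tissue (1.78, adjusted p = 0.15). Dhrs7c, an oxidoreductase of the sarcoplasmic reticulum, was low mainly in Largemyd. It read 11.03 to 11.72 in C57Bl/6, 9.06 to 10.58 in Largemyd and 10.69 to 11.10 in Dmdmdx. In the double mutant it read 11.11, 11.21, 11.31, 11.29 and 9.96, and only array 5 fell into the Largemyd range. The contrast was 1.90 (SE 0.32, adjusted p = 2.1e-05). Nxpe4 had a contrast of 1.61 (SE 0.26, adjusted p = 1.1e-05), with 5.67 to 6.49 in Largemyd and 6.95 to 7.49 in the double mutant.

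Ppp1r3c, which targets a phosphatase to glycogen, and Abra, an actin-binding protein of muscle, returned to the C57Bl/6 level. Ppp1r3c had means of 10.36 in C57Bl/6, 9.80 in Largemyd, 9.24 in Dmdmdx and 10.38 in the double mutant, a contrast of 1.70 (SE 0.39, adjusted p = 0.0018). Abra had 11.83, 11.12, 10.81 and 11.72 in the same order, a contrast of 1.61 (SE 0.30, adjusted p = 1.2e-04). Gabrr2, a subunit of an ion channel opened by GABA, had a contrast of 1.67 (SE 0.37, adjusted p = 0.0011). On the 20 arrays of 21 days alone Gabrr2 did not pass (adjusted p = 0.069). It read 9.58, 9.42, 9.31, 9.71 and 7.81 in the double mutant and 7.22 to 9.42 in C57Bl/6.

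Another 4 of the 12 most positive genes were high on double mutant arrays 1 and 5. Depp1, a gene induced by FOXO factors, read 11.39 and 10.62 on these arrays and 8.47 to 8.74 on the other 3. Hamp, which encodes the iron hormone hepcidin, read 7.86 and 5.95 against 3.77 to 4.93. Lvrn, an aminopeptidase, read 9.25 and 8.90 against 7.08 to 7.37. Slc10a6, a transporter of sulfated steroids, read 10.10 and 10.49 against 7.91 to 8.36. Their contrasts were 1.84, 1.81, 1.67 and 1.66, and none of the 4 passed without these 2 arrays. The adjusted p of Depp1 was 0.053 without Largemyd array 4, 0.060 without Largemyd array 5 and 0.069 without double mutant array 1.

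**Figure D4:**
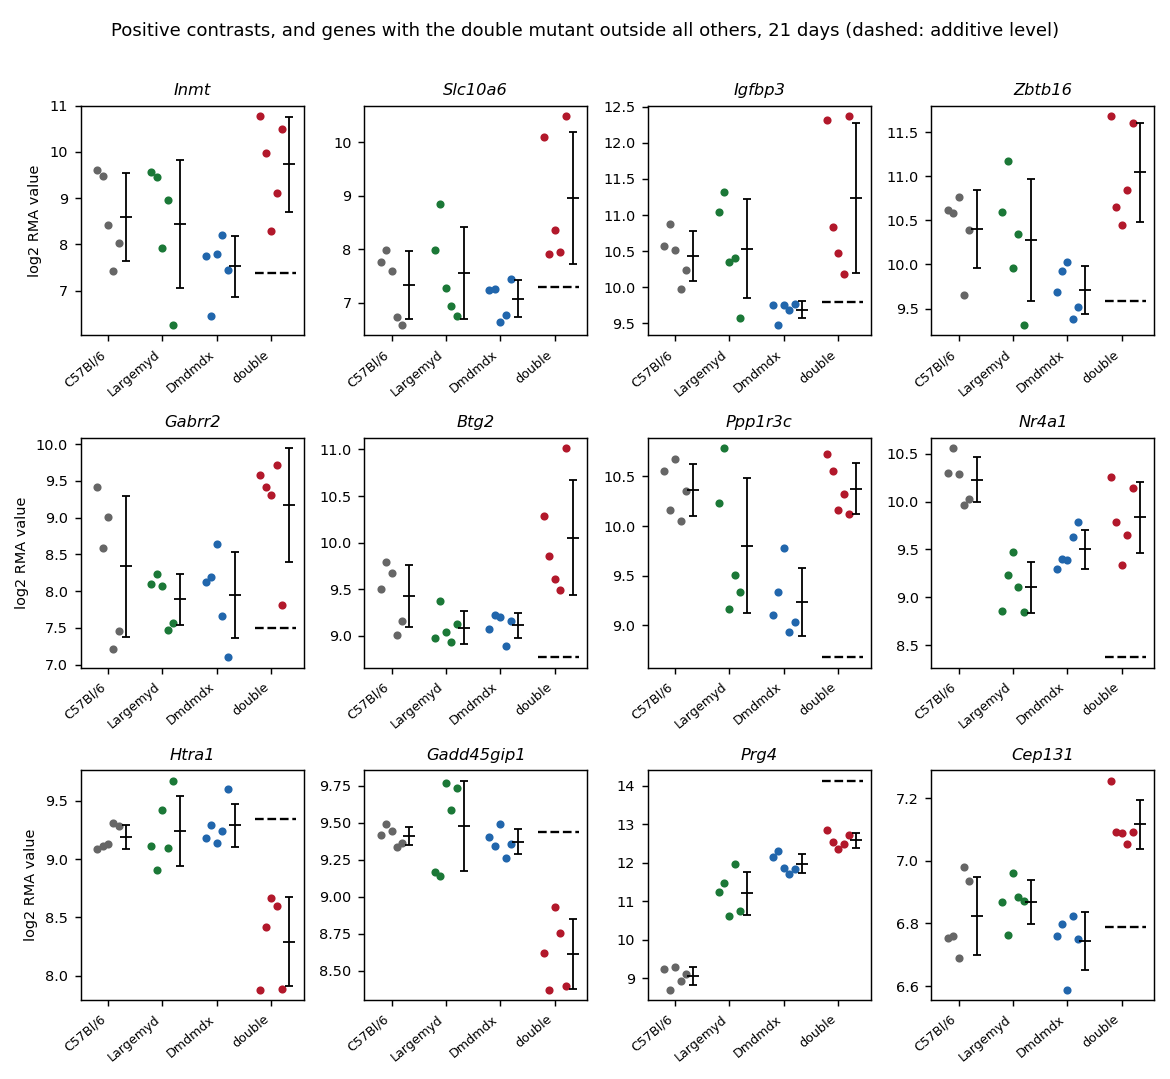
Log2 expression at 21 days of genes with a positive contrast and of genes whose double mutant arrays lie outside all other arrays, 1 panel per gene and 1 point per array for 5 arrays in each lineage; black bars are the mean ± SD and the dashed line is the additive level. For Gabrr2 4 of the 5 double mutant points lie between 9.31 and 9.71, and for Htra1 all 5 lie below the other 15.

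Glucocorticoid-induced genes had the highest median contrast of the lists with 4 or more members passing. Of 24 measured 10 were positive and 3 negative, with a median of 0.72. Zbtb16, a zinc finger factor that glucocorticoids induce, read 9.65 to 10.76 in C57Bl/6, 9.32 to 11.17 in Largemyd and 9.38 to 10.03 in Dmdmdx. In the double mutant it read 11.68, 10.65, 10.45, 10.84 and 11.60, above every Dmdmdx array. The contrast was 1.46 (SE 0.33, adjusted p = 0.0014). Klf9 and Tsc22d3, further targets of the glucocorticoid receptor, had 1.00 and 0.95 (adjusted p = 0.015 and 0.021), whereas Fkbp5 and Per1 had 0.89 and 0.98 and did not pass (adjusted p = 0.21 and 0.14). Mt2, a metal-binding protein, was among the 3 negative members: its means were 11.31 in C57Bl/6, 13.26 in Largemyd, 12.86 in Dmdmdx and 13.44 in the double mutant, a contrast of -1.37 (SE 0.34, adjusted p = 0.0033).

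Double mutant arrays 1 and 5 were the 2 highest of their group for 20 of these 24 genes, for 459 of the 1285 positive genes and for 3578 of all 19938. Without both arrays, a choice made after the data were seen, 2 of the 24 were positive and 4 negative, and the median was 0.33. Without Largemyd array 5 the positive count was 4. Atrophy and protein breakdown genes followed the same arrays. Of 23 measured 5 were positive and 1 negative, with a median of 0.38, and arrays 1 and 5 were the 2 highest for 21 of them. Without them the median turned to -0.05, with 1 positive and 3 negative. The muscle ubiquitin ligases Fbxo32 and Trim63 had SDs of 1.89 and 1.69 in the double mutant, and their contrasts of 0.51 and 0.85 did not pass (adjusted p = 0.58 and 0.28). Bnip3, a mitophagy receptor, had a contrast of 1.38 (SE 0.31, adjusted p = 0.0013), with 12.93 and 12.82 on arrays 1 and 5 and 10.90 to 11.60 on the other 3, and a contrast of 0.75 without those 2 arrays (adjusted p = 0.034). The atrophy median was 0.20 without double mutant array 1. Leaving out 1 array moved the positive atrophy count by over 1.5 times for 13 arrays, to between 2 and 8: it was 2 without Largemyd array 5, and 8 without Largemyd array 2 or without double mutant array 3. The count was 3 without any 1 of C57Bl/6 arrays 1, 2 and 3, Largemyd array 3, Dmdmdx arrays 1, 3, 4 and 5, and double mutant arrays 1 and 5.

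Of 26 immediate early genes 4 were positive and 1 negative, with a median of 0.32, and 0.16 without double mutant array 5. Nr4a1, an orphan nuclear receptor, read 9.97 to 10.56 in C57Bl/6, 8.84 to 9.47 in Largemyd, 9.29 to 9.78 in Dmdmdx and 9.34 to 10.26 in the double mutant, a contrast of 1.46 (SE 0.29, adjusted p = 3.4e-04). Btg2, an antiproliferative gene, read 10.29, 9.86, 9.61, 9.50 and 11.01 in the double mutant, above every Largemyd and Dmdmdx array, whose highest were 9.37 and 9.23. Its contrast was 1.28 (SE 0.26, adjusted p = 4.8e-04). Dusp1, a phosphatase that switches off stress kinases, had 1.18 (SE 0.24, adjusted p = 4.0e-04).

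The promoters of Btg2 and Dusp1 are shown because each holds TGACGTCA, the cAMP response element, which was searched for this group. They are the 250 bases before the start in RefSeq build GRCm38.p6, at chr1:134079156-134079405 for Btg2 and chr17:26508473-26508722 for Dusp1, both on the minus strand, with TGACGTCA and GAGGAA on either strand in capitals.
Btg2: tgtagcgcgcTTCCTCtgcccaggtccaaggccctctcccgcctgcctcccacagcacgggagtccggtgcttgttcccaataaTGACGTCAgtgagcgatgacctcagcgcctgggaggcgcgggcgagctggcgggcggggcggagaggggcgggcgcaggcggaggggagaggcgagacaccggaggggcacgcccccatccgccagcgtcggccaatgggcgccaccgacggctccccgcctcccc
Dusp1: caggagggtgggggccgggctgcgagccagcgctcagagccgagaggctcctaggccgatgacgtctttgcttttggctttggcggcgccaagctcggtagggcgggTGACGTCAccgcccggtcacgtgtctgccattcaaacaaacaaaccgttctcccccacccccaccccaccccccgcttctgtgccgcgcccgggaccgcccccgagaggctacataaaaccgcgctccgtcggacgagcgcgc
TGACGTCA occurred in 2.72% of all promoters searched, in 1.86% of the negative genes' promoters and in 2.68% of the positive genes'. It occurred in 3 of 21 promoters of the immediate early list and 2 of 20 of the glucocorticoid list. The cell cycle list had 3 of 35, the MHC list 1 of 9 and the macrophage list 0 of 25.

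Smaller positive contrasts were found among lists for adult fibres, myelin and vessels. Of 24 adult fast sarcomere genes 5 were positive and none negative, with a median of 0.21. Actn3, the actinin of fast fibres, read 13.37 to 13.49 in C57Bl/6, 12.82 to 13.19 in Largemyd, 12.89 to 13.18 in Dmdmdx and 13.05 to 13.29 in the double mutant, a contrast of 0.46 (SE 0.12, adjusted p = 0.0057). The fast sarcomere count was 1 without Largemyd array 5 and 1 without double mutant array 1. It was 2 without C57Bl/6 array 1 or 3 or Dmdmdx array 1 or 2, and 3 without C57Bl/6 array 5 or double mutant array 4. It was 0 without the 5 arrays with raised lymph node markers.

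Of 21 Schwann cell and myelin genes 4 were positive and none negative, with a median of 0.27. Fa2h, which makes the hydroxylated fatty acids of myelin, had a contrast of 1.05 (SE 0.24, adjusted p = 0.0014), Ncmap, a protein of noncompact myelin, 0.70 (SE 0.17), and Cldn19, a junction protein of the myelin sheath, 0.66 (SE 0.15). Cldn19 had means of 8.34 in C57Bl/6, 7.84 in Largemyd, 7.65 in Dmdmdx and 7.82 in the double mutant. With the tissue means as covariates none of the 21 passed.

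Of 25 endothelial markers 5 were positive and 2 negative, with a median of 0.11. Over all genes 6.44% were positive and 8.75% negative, and the negative count was near that share. Robo4, a guidance receptor of vessels, read 8.70 to 8.98 in C57Bl/6, 7.73 to 8.48 in Largemyd, 8.08 to 8.25 in Dmdmdx and 7.93 to 8.41 in the double mutant. All 15 mutant arrays lay below the 5 C57Bl/6 arrays and overlapped each other, and the contrast was 0.61 (SE 0.14, adjusted p = 0.0012). Aplnr, the apelin receptor, went the other way at -1.05 (SE 0.34, adjusted p = 0.027). It read 7.34 to 8.38 in the double mutant and 8.31 to 10.33 on the other arrays. It did not pass without any 1 of C57Bl/6 array 1 or 3, Largemyd array 3 or 5, or double mutant array 1, with adjusted p from 0.057 to 0.071, nor without double mutant arrays 1 and 5 (-0.78, adjusted p = 0.13).

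The complex that the 2 mutations disturb had few members past the threshold. Of 18 genes of the dystrophin-glycoprotein complex 2 were positive and 1 negative, with a median of -0.02, which is near the share of all genes that passed, 6.44% positive and 8.75% negative. Sgca, which encodes the membrane protein α-sarcoglycan, had means of 11.82 in C57Bl/6, 11.34 in Largemyd, 11.26 in Dmdmdx and 11.63 in the double mutant, a contrast of 0.84 (SE 0.24, adjusted p = 0.013). Nos1, the nitric oxide synthase held at the membrane by dystrophin, had 7.82, 7.46, 6.89 and 7.62, a contrast of 1.09 (SE 0.30, adjusted p = 0.0087). Itgb1, which encodes an integrin chain of laminin receptors, had -0.49 (SE 0.10, adjusted p = 5.9e-04). Of 14 genes of dystroglycan glycosylation only the mannosyltransferase Pomt2 passed, at 0.29 (SE 0.09, adjusted p = 0.023). Of 72 oxidative phosphorylation genes 2 were positive and none negative, with a median of 0.09, and none of 16 slow fibre genes passed.

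Apart from the contrast, some genes set the double mutant outside every other array. All 5 double mutant arrays lay below the other 15 for 109 genes (0.547% of those tested) and above them for 28 (0.14%). Of the 109 genes 25 had a negative contrast that passed, where 8.75% of all genes did. Of the 28 genes 8 had a positive and 1 a negative contrast that passed, where 6.44% and 8.75% of all genes did. The double mutant values enter both the position and the contrast, so the choice of genes itself favours a contrast of the same sign. Without double mutant array 4 the lower count was 231, without Largemyd array 2 it was 167 and without double mutant array 3 it was 165. The higher count was 120 without double mutant array 5, 68 without Largemyd array 2, 50 without Largemyd array 1 and 52 without double mutant array 2, 3 or 4.

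Htra1, a secreted serine protease, read 9.09 to 9.31 in C57Bl/6, 8.91 to 9.67 in Largemyd, 9.14 to 9.60 in Dmdmdx and 7.88, 8.42, 8.67, 8.60 and 7.89 in the double mutant. The single mutant means were 9.24 and 9.29 against 9.19 in C57Bl/6, and the contrast was -1.06 (SE 0.20, adjusted p = 1.5e-04). Gadd45gip1, a protein of the mitochondrial ribosome, read 8.37 to 8.93 in the double mutant and 9.14 to 9.77 on the other 15 arrays, with a contrast of -0.83 (SE 0.17, adjusted p = 3.8e-04). Gbp4, an interferon-induced GTPase, read 6.21 to 6.91 in the double mutant and 7.18 to 8.70 elsewhere, a contrast of -1.17 (SE 0.34, adjusted p = 0.014). Gbp4 did not pass without the 5 arrays with raised lymph node markers (-0.91, adjusted p = 0.14). Nor did it pass without the 9 arrays raised in any tissue or on linear values (adjusted p = 0.18 and 0.51). Aven, an inhibitor of apoptosis, had -0.33 (SE 0.11, adjusted p = 0.024). Its adjusted p was 0.062 without C57Bl/6 array 5, 0.057 without Largemyd array 5 0.061 without Dmdmdx array 5 and 0.11 without double mutant arrays 1 and 5. Akr1b10, an aldo-keto reductase, had -0.80 (SE 0.24, adjusted p = 0.018), and 0.057 without double mutant array 5. It was -0.41 without double mutant arrays 1 and 5 (adjusted p = 0.18) and -0.46 when arrays were weighted (adjusted p = 0.064). Without the 3 arrays over 2 units up in tissue markers the contrast of Akr1b10 was -0.49 (adjusted p = 0.11).

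Prg4, which encodes the lubricant lubricin, showed both patterns at once. It read 8.70 to 9.28 in C57Bl/6, 10.61 to 11.97 in Largemyd, 11.70 to 12.30 in Dmdmdx and 12.85, 12.55, 12.35, 12.48 and 12.71 in the double mutant. The double mutant was the highest group with no overlap, yet the additive level of 14.12 gave a contrast of -1.54 (SE 0.34, adjusted p = 9.8e-04). On linear values the contrast of Prg4 was positive but did not pass (limma, adjusted p = 0.91). Serpina3n, an inhibitor of serine proteases, likewise had its highest mean in the double mutant, 12.18 against 7.94 in C57Bl/6, 11.19 in Largemyd and 10.95 in Dmdmdx. Its contrast was -2.02 (SE 0.47, adjusted p = 0.0021), and on linear values it was positive but did not pass (adjusted p = 0.65). Probes of the Serpina3 family may read near-identical copies. Among genes whose contrast passed, the 4 besides Prg4 with the widest gap above all other arrays were Cep131, Them7, Ccdc27 and Tgm4. The contrast was 0.33 (SE 0.10) for Cep131, a centrosome protein, and 0.45 (SE 0.13) for Them7. It was 0.35 (SE 0.11) for Ccdc27 and 0.45 (SE 0.16) for the transglutaminase Tgm4. Cep131 read 7.05 to 7.26 in the double mutant and 6.59 to 6.98 elsewhere, and did not pass without double mutant arrays 1 and 5 (adjusted p = 0.051). Ccdc27 did not pass without Largemyd array 4 or Dmdmdx array 1 (adjusted p = 0.059 and 0.066). Tgm4 did not pass without any 1 of 12 arrays: C57Bl/6 array 1, 3 or 5, Largemyd array 3, 4 or 5, Dmdmdx array 2, 3 or 5, or double mutant array 1, 2 or 4 (adjusted p from 0.054 to 0.12). Without double mutant arrays 1 and 5 its adjusted p was 0.069.

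The same contrast at older ages passed for fewer genes. At 3 months 372 were negative (1.87%) and 263 positive (1.32%), and at 6 months 409 were negative (2.05%) and 592 positive (2.97%). Each age was compared only within itself, because the arrays of an age share their own level. Each contrast takes its means from its own 20 arrays, but the error of a gene is pooled over the ages. Of the 33 macrophage markers 20 were negative at 3 months and 17 at 6 months, with medians of -1.39 and -1.25. Of the 27 interferon-induced genes none passed at either older age, where the medians were -0.50 and -0.52. The cell cycle median was -0.55 at 3 months and -0.04 at 6 months. Without the 11 arrays that went against the male label, which leaves 1 C57Bl/6 array at 6 months, assumed to vary like the other groups, 217 genes were negative and 82 positive at 3 months, and 23 and 35 at 6 months. The macrophage counts were then 14 and 1, with medians of -1.28 and -0.72. Without 6 older arrays that stood over 2 units above their age in lymph node, marrow or skin markers they were 24 and 26.

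A difference between ages was tested directly. Between 21 days and 3 months no gene passed (0%), although 1742 had an unadjusted limma p below 0.05. Between 21 days and 6 months 73 genes passed (0.366%), and 2722 had an unadjusted p below 0.05. Among them Myl4 had contrasts of -2.55 at 21 days and -1.17 at 6 months, Akr1b10 -0.80 and 0.59, and Robo4 0.61 and -0.18. No macrophage, interferon or extracellular matrix gene of the lists was among the 73. Without the 11 arrays that went against the male label 10 genes passed, and Myl4, Akr1b10 and Robo4 did not (adjusted p = 0.17, 0.18 and 0.15). Without the 6 older arrays over 2 units up in tissue markers Myl4 passed (adjusted p = 0.0063) and Akr1b10 and Robo4 did not (adjusted p = 0.057 and 0.074). The count of 73 was 46 without C57Bl/6 array 1, 48 without C57Bl/6 array 4, 130 without Largemyd array 1, 176 without Largemyd array 2 and 34 without Largemyd array 5. It was 44 without Dmdmdx array 1, 38 without Dmdmdx array 2 and 110 without double mutant array 4. The count between 21 days and 3 months was 1 without the 11 arrays, 5 without C57Bl/6 array 2, 4 without Largemyd array 2 and 2 without double mutant array 4.

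**Figure D5:**
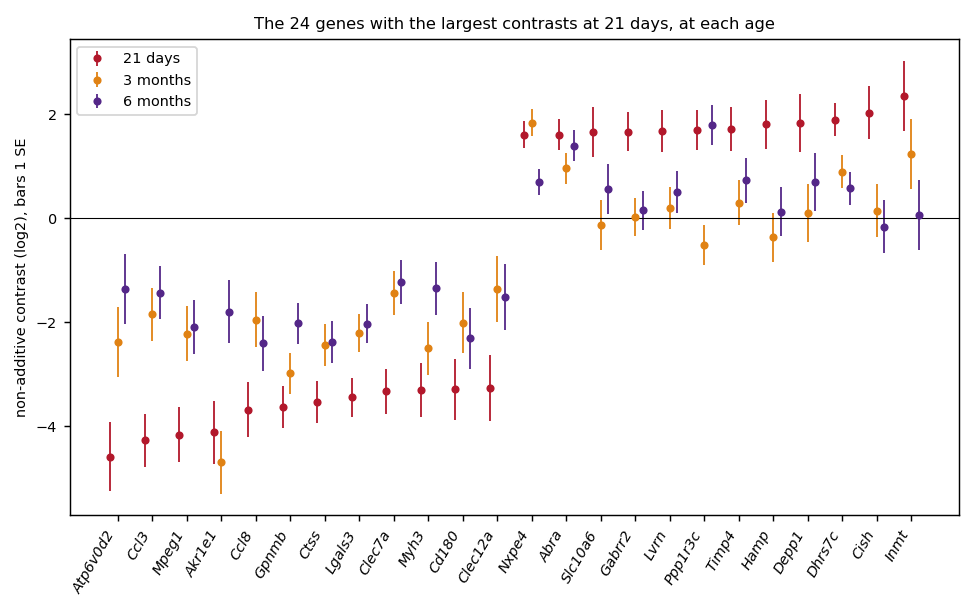
Non-additive contrast in log2 units (± SE) at 21 days, 3 months and 6 months for the 12 most negative and the 12 most positive genes at 21 days; 0 marks a double mutant equal to the sum. The genes were chosen by their 21-day values, and the 12 negative ones lie below 0 at each age, as Atp6v0d2 at -4.58, -2.38 and -1.36.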

How the data were processed

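Calf muscle RNA of 60 male mice was measured on Affymetrix Mouse Gene 1.0 ST arrays, per the labels. Per the submitters' processing notes, the authors deposited RMA log2 values from Expression Console, a program of Affymetrix whose version no source here names. These values were used unscaled. Genes were named from the platform annotation, 1 probe set per gene with a single symbol, the one with the highest mean. All 12 groups of lineage and age were fitted together with limma 3.58.1 in R 4.3.3 (48 residual degrees of freedom), and p-values were adjusted by Benjamini-Hochberg over 19938 genes. The fit was checked on simulated data.

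The text names the 12 most negative and 12 most positive genes that passed, and Dmd, Utrn and Dag1. It names the 5 genes with the widest gap on either side of all other arrays, taken only from genes whose contrast passed. It also names up to 3 examples of each list with 4 or more members passing. Genes outside this rule, among them Vsig4, Cd163, Cd68, Fn1, Myh8 and the members that did not pass, were chosen after their values were seen. The comparison, the 46 gene lists and the motifs were chosen with earlier results of these data known. Motifs searched on both strands of RefSeq promoters were GAGGAAGT and its core GAGGAA, GTCACGTG and its core CACGTG, the interferon element GAAANNGAAA, the cell cycle element TTTGAA, the MEF2 form CTANNNNTAG, the glucocorticoid response element, its looser form ACANNNTGT, the TEAD motif CATTCC, the CCAAT box, the myogenic E-box CANCTG, the cAMP element TGACGTCA, the serum response form CCNNNNNNGG and the STAT form TTCCNGGAA; the 3 printed were picked after the counts were seen. Alternatives covered the arrays used, scaling, array weights, low values, probe sets, variance model, linear values, tissue markers and leaving out each array. The transcript of the gene mutated in Largemyd is not reported here.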

Additional observations from a re-analysis of the deposited data

Results flagged for a closer look

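Among the 104 named genes with 5 arrays in each of 4 groups, 37 of 416 groups held an array whose gap to its nearest neighbour exceeded Dixon's 95% limit of 0.71 of the group's range, where chance gives about 5%. The arrays recur. C57Bl/6 array 2, with the highest lymph node markers, was the odd one for 16 genes, always high except for Akr1b10. It read 8.66 for Mpeg1, 7.43 for Ccl8, 9.02 for Ctss, 9.97 for Cd180, 8.70 for Gbp4, 9.87 for Akr1b10 and 7.01 for Klrd1. It also read 5.34 for Klrk1, 8.48 for Cfb, 10.60 for C1qb, 8.43 for Ifi27l2a, 8.29 for Irf7, 11.38 for H2-Aa, 11.75 for Cd74, 11.31 for H2-Ab1 and 9.22 for Serpina3n. Whether lymph node RNA accounts for these values was not tested for single genes.

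Double mutant array 1 stood apart at 7.46 for Atp6v0d2, 6.75 for Clec7a, 7.26 for Cep131, 7.14 for Anln, 13.07 for Myoz1, a Z-disc protein of fast fibres, and 10.61 for Psma1, a proteasome subunit. Double mutant array 5 stood apart at 9.96 for Dhrs7c and 7.81 for Gabrr2, and array 2 at 8.67 for Nnat, an imprinted membrane protein. Dmdmdx array 2, without raised lymph node markers, was low at 10.47 for H2-Aa, 10.37 for Cd74, 10.15 for H2-Ab1 and 9.48 for Igfbp3, an insulin-like growth factor binding protein, and high at 13.18 for Mt2. Dmdmdx array 1 was high at 9.97 for Clec12a and 5.92 for Klrk1. Largemyd array 5 read 12.34 for Myoz1, 9.77 for Chrng and 10.22 for Runx1, Largemyd array 4 read 10.80 for Dag1, and C57Bl/6 array 1 read 11.51 for Mylk2, the kinase of myosin light chains.

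The contrast of 3 named genes differed between 21 days and 6 months by the test of that difference. The difference, 21 days minus 6 months, was -1.39 for Akr1b10, 0.80 for Robo4 and -1.38 for Myl4, and none of the 3 passed without the 11 older arrays that went against the male label.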

How the results depend on the processing

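No paired analysis was possible because the titles give animal letters to C57Bl/6 and Dmdmdx but other animal identifiers to Largemyd and the double mutant. Of 101 named genes that passed, 42 lost the call in none of the 34 other settings and 16 lost it when 1 array was left out. A change of sign was not counted as a loss. The 42 therefore include Serpina3n, which turned positive on linear values and did not pass there. The reported counts were 3030 genes (1285 positive, 1745 negative), 26 lists with 4 or more members passing, 28 and 109 genes with the double mutant above or below all other arrays, and 0 and 73 genes differing from 3 and 6 months. Leaving out 1 array gave 2101 to 4068 genes, 791 to 1874 positive and 1310 to 2194 negative, 18 to 29 lists, 28 to 120 above, 109 to 231 below, 0 to 5 for 3 months and 34 to 176 for 6 months. The 20 arrays of 21 days alone gave 1978 genes, 755 positive. Subtracted array medians gave 3084 positive and 35 for 6 months. Array weights gave 6468 (3503 positive, 2965 negative), 134 for 3 months and 720 for 6 months. Linear values gave 1492 (571 positive, 921 negative) and 17 lists. The linear contrasts of 160.9 for Prg4 and 851.5 for Serpina3n were opposite in sign to the log2 scale. Neither passed (limma, adjusted p = 0.91 and 0.65). Without the 3 arrays over 2 units up in tissue markers 4 genes differed from 3 months, with 258 above and 254 below. Tissue means as covariates gave 748 positive. The filter on low values left 15 above. The remaining settings were chosen after seeing the data. Without the 5 arrays with raised lymph node markers there were 1762 genes (554 positive), 18 for 6 months, 60 above and 177 below. Without the 9 arrays raised in any tissue there were 1610 (571 positive, 1039 negative), 15 lists, 3 for 6 months, 847 above and 731 below. Without double mutant arrays 1 and 5 there were 213 above and 289 below, and the median of the atrophy list turned to -0.053. Without the 11 older arrays that went against the male label 1 gene differed from 3 months and 10 from 6 months. The cause of these changes was not tested.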

Other observations

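Other lists had members passing in both directions, or few, where 6.44% of all genes were positive and 8.75% negative. Of 31 growth factor and insulin signalling genes 5 were positive and 6 negative. Irs2, an adaptor of the insulin receptor, read 7.27 to 7.54 in Dmdmdx and 7.93 to 9.34 in the double mutant with no overlap, a contrast of 1.08 (SE 0.23, adjusted p = 7.2e-04). Hgf, a growth factor that activates satellite cells, had -1.75 (SE 0.21, adjusted p = 3.5e-08) with means of 5.65 in C57Bl/6, 7.03 in Largemyd, 7.20 in Dmdmdx and 6.82 in the double mutant. Of 26 endoplasmic reticulum and ATF4 stress genes 5 were positive and 5 negative, among them Cth, an enzyme of cysteine synthesis, at 1.39 (SE 0.33) and Psat1, an enzyme of serine synthesis, at -1.28 (SE 0.21). Gpx3, a secreted glutathione peroxidase, had 1.50 (SE 0.33, adjusted p = 0.0010), with 11.86 and 11.89 on double mutant arrays 1 and 5 and 10.14 to 10.80 on the others. Without those 2 arrays the contrasts of Irs2, Cth and Gpx3 were 0.57, 0.66 and 0.91 (adjusted p = 0.018, 0.047 and 0.029). On the 20 arrays of 21 days alone Irs2 and Cth did not pass (adjusted p = 0.051 and 0.070). None of 16 clock genes, 18 bone and cartilage markers or 20 neutrophil and marrow markers passed, with medians of 0.31, 0.26 and 0.72. Lists with a median away from 0 but few members passing were the 11 erythroid markers (0.88, 1 positive), the 23 skin markers (0.63, none), the 22 lymph node and lymphocyte markers (-0.88, 1 negative) and 24 genes of calcium handling (0.41, 3 positive).

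H2-Ea varied between animals at older ages too. The double mutant read at least 11.78 on 3 arrays and 6.02 and 6.22 on the other 2 at 3 months and 11.14, 5.99, 5.75, 5.73 and 5.86 at 6 months. Largemyd read 11.34 to 12.28 at 3 months, and at 6 months 11.36 to 12.36 on 4 arrays and 6.07 on array 5. All C57Bl/6 and Dmdmdx arrays lay at or below 6.35.

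Pla2g7, which encodes a lipase that breaks down platelet-activating factor, had contrasts of -0.96 at 21 days, 0.62 at 3 months and 1.57 at 6 months. The difference between 21 days and 6 months was -2.53 (limma, adjusted p = 3.1e-05), and -2.59 without the 11 older arrays that went against the male label (adjusted p = 0.0045), and the gene was chosen after its values were seen.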
